A study of Mus musculus with 16 samples.

Results

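Transcripts of the cytosolic ribosomal proteins, the protein parts of the ribosomes that translate nuclear-encoded messages, were followed in the left ventricle of the heart and in subcutaneous white adipose tissue (scWAT). The genes were taken by symbol: Rpl or Rps followed by a number and at most one of the letters a, x, y or l with a further number, together with Rpsa, Rplp0, Rplp1 and Rplp2, without pseudogene names and without the S6 kinases. The pattern leaves out a few other names such as Rpl36al, Rpl37rt and Rps27rt. Of 33641 gene symbols 88 matched, and 84 of these had a mean of at least 1 TPM (a level per transcript length that sums to 1000000 in each library) in at least one tissue. They comprised 46 genes of the large subunit, 31 of the small subunit and 7 paralogs, which are second copies of a ribosomal protein gene with their own symbol (Rpl3l, Rpl22l1, Rpl7l1, Rpl39l, Rps27l, Rps4l and Rps12l1). The 4 symbols left out were Rpl10l, listed at 0 in all 16 libraries, and Rpl6l, Rps3a2 and Rps3a3, of which the highest was Rps3a2 with a mean of 0.450 TPM in scWAT. The lowest gene kept was Rpl39l, with a mean of 9.86 TPM in scWAT and 0.270 TPM in heart.

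The tissues came from C57BL/6J mice aged 28 weeks that were labelled either Adipo-HuR KO, a deletion of the RNA-binding protein HuR (gene Elavl1) in adipocytes, or wild-type. The series asks what this deletion does to the heart, in terms of cardiac hypertrophy and fibrosis. The promoter that drives the deletion is not given in the sources used here. There were 4 KO hearts (mice A25, A29, A30 and A31) and 4 wild-type hearts (A5, A7, A8 and A14), and 3 KO scWAT samples (A24, A26 and A30) and 5 wild-type scWAT samples (A5, A7, A8, A12 and A14). Each library of a group was a different mouse, and 5 of the 11 mice gave both tissues.

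Each ribosome has a large and a small subunit that hold one copy of most of their proteins, and cells make these proteins in matched amounts. Their messages in mammals carry a terminal oligopyrimidine (TOP) tract, a stretch of C and T that begins with the C at the start of transcription, through which the mTORC1 kinase and the protein LARP1 govern their translation and stability. Striated muscle has a ribosomal protein of its own, Rpl3l, which takes the place of the universal Rpl3 near the peptidyl transferase centre in heart and skeletal muscle ribosomes.

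The start sites of 9 members were picked to display a feature that most of the family shares, and the paralog at the centre of the results below. Each line holds the 15 bases before and the 15 bases from the annotated start, 5′ to 3′ on the gene's own strand, from the RefSeq promoters of GRCm38.p6, with the longest run of C and T beginning with C in capitals.
Rpl15 (chr14:18270972-18271001, minus strand): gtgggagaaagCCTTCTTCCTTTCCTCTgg
Rpl35 (chr2:39005117-39005146, minus strand): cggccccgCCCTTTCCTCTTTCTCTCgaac
Rps18 (chr17:33955651-33955680, minus strand): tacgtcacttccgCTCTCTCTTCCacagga
Rps6 (chr4:86857353-86857382, minus strand): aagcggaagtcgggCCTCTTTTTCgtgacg
Rpl28 (chr7:4792950-4792979, plus strand): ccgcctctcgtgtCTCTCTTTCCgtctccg
Rps27 (chr3:90213634-90213663, minus strand): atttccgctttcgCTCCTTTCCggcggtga
Rplp2 (chr7:141447636-141447665, plus strand): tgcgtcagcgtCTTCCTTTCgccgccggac
Rpl22l1 (chr3:28805493-28805522, plus strand): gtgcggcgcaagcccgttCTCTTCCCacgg
Rpl3l (chr17:24727811-24727840, plus strand): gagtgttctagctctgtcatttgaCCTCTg
Within these 30 bases the first 8 had runs of 8 to 18 bases and Rpl3l had one of 5 bases. The runs began from 7 bases before to 9 bases after the annotated start, and none exactly at it. They are thus runs near an annotated start and not mapped TOP tracts. In the wider window of the next paragraph Rpl3l had a run of 9 bases and counts among the genes that hold one.

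Promoters were in the table for 62 of the 84 genes. A run of at least 8 bases within 50 bases on either side of a start was found in 52 of these 62 genes (83.9%), against 32.0% of all 27025 genes of the table. On the reverse strand of the same windows the shares were 21.0% and 34.4%. The letters CTTTC, which can lie inside such a run, were found on the gene's strand in 51.6% of the 62 genes and in 14.6% of all genes, and on the reverse strand in 14.5% and 13.8%. These are matches of letters and no measurement of translation.

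The series as a whole has limits that touch every value below. Elavl1 averaged 40.4 ± 3.62 TPM in KO scWAT (SD, n = 3) and 26.8 ± 7.39 TPM in wild-type scWAT (n = 5), with all 3 KO samples above all 5 wild-type samples (limma adjusted p = 0.256). It was thus not lower where the label says deleted, and KO stands below for libraries labelled knockout. The tissue labels held: cardiomyocyte markers summed to between 14420 and 28990 TPM in the hearts and to at most 95.9 TPM in scWAT, and adipocyte markers to between 42130 and 62140 TPM in scWAT and to at most 2169 TPM in the hearts. Sequencing depth cannot be read from TPM, so neither depth nor counting error is known here. In the hearts, mitochondrially encoded transcripts took between 43.4% and 60.6% of TPM, against between 6.14% and 14.4% in scWAT, which lowers every nuclear gene of the heart on this scale. In pieces of whole tissue, more cells of a type and more RNA per cell cannot be told apart.

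Ribosomal protein genes have many processed pseudogenes, and reads shared with them make single values uncertain. There were 278 rows named after a ribosomal protein gene with a pseudogene suffix. Most were empty, with 258 under 1 TPM on average, but 14 reached 40 TPM and 8 of those stood above the gene they are named after. The row Rps12-ps3 averaged 1011 TPM over the 16 libraries, against 52.0 TPM for Rps12 itself, and Rpl27-ps3 averaged 358 TPM, against 31.8 TPM for Rpl27. The low levels printed for Rps12 and Rpl27 may therefore not be the levels of these messages. Rps12l1 lay anywhere between 0 and 123 TPM within a single group and passed no test in any comparison below.

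In the heart, the summed ribosomal protein transcripts took 3.999%, 1.81%, 3.46% and 4.08% of all TPM in the KO libraries A25, A29, A30 and A31, against 1.49%, 1.77%, 1.92% and 1.61% in wild-type A5, A7, A8 and A14. The KO libraries A25, A30 and A31 lay above all wild-type libraries, and A29 lay among them. The means were 3.34% ± 1.05 (SD, n = 4) in KO hearts and 1.70% ± 0.188 (n = 4) in wild-type hearts, a ratio of 1.97, or 2.27 without A29. With the mitochondrially encoded transcripts taken out of the total, the shares were 7.43%, 4.08%, 6.12% and 7.98% in KO hearts and 3.78%, 3.77%, 3.995% and 3.44% in wild-type hearts, a ratio of 1.71. On that scale A29 stood just above the highest wild-type heart.

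**Figure D1:**
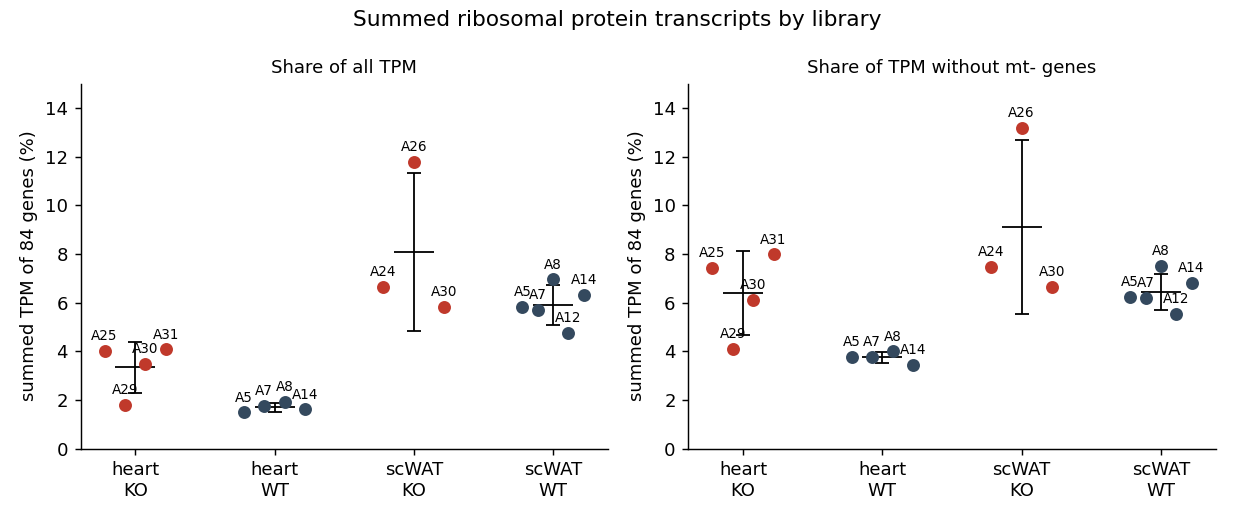
Summed TPM of the 84 genes as a percentage of all TPM (left) and of TPM without mitochondrially encoded genes (right), 1 point per library, with horizontal bars at group means and error bars of 1 SD. In the left panel 3 of the 4 KO hearts lie above all wild-type hearts and A29 lies among them, and in scWAT the KO library A26 lies apart at 11.8% of all TPM.

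No ribosomal protein gene passed the threshold in the heart with all 8 libraries. limma on log2(TPM + 1), adjusted by Benjamini-Hochberg over all 11981 tested genes, called 0 of 83 tested members higher (0.0501% of all genes) and 0 lower (0% of all genes). At an unadjusted p under 0.05, 80 members were higher (20.9% of all genes) and 1 was lower (3.66% of all genes). The median log2 fold change, KO over wild-type, was 0.93 for the members and 0.26 for all tested genes. All members but Rpl3l, 82 of 83, were above 0 and also above the median of all genes. That median was itself above 0, so most tested genes were above 0 too. In 17 members all KO libraries lay above all wild-type libraries (3.71% of all genes), and in 0 all lay below (0.634%).

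A29 decided these calls. The members of A29 had a median shift of 0.10 from the wild-type mean on the log2 scale, while A25, A30 and A31 had shifts of 1.24, 1.08 and 1.31. All tested genes had median shifts of 0.29, -0.17, 0.61 and 0.30 in A25, A29, A30 and A31. Part of the shift in A25, A30 and A31 was thus common to all genes, most of all in A30. Among wild-type hearts, A5 had -0.24 for the members and -0.52 for all tested genes. Without A29, limma called 81 of 83 members higher (34.8% of all genes) and 1 lower (4.16% of all genes), the exception being Rps12l1. The member median was then 1.23, against 0.39 for all tested genes. Median-of-ratios scaling without A29 left 58 members higher (19.5% of all genes) and 1 lower (20.9% of all genes). With all 8 hearts kept but weighted by how well each library fitted its group (limma array weights), 81 members were higher (43.1% of all genes) and 1 was lower (22.7% of all genes). That A29 resembles wild-type hearts was known when it was left out, so the count without it describes the 3 other KO hearts and is no independent test. Array weights were estimated from the same values, so a library unlike its group counts for less, and that count is no independent test either.

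**Figure D2:**
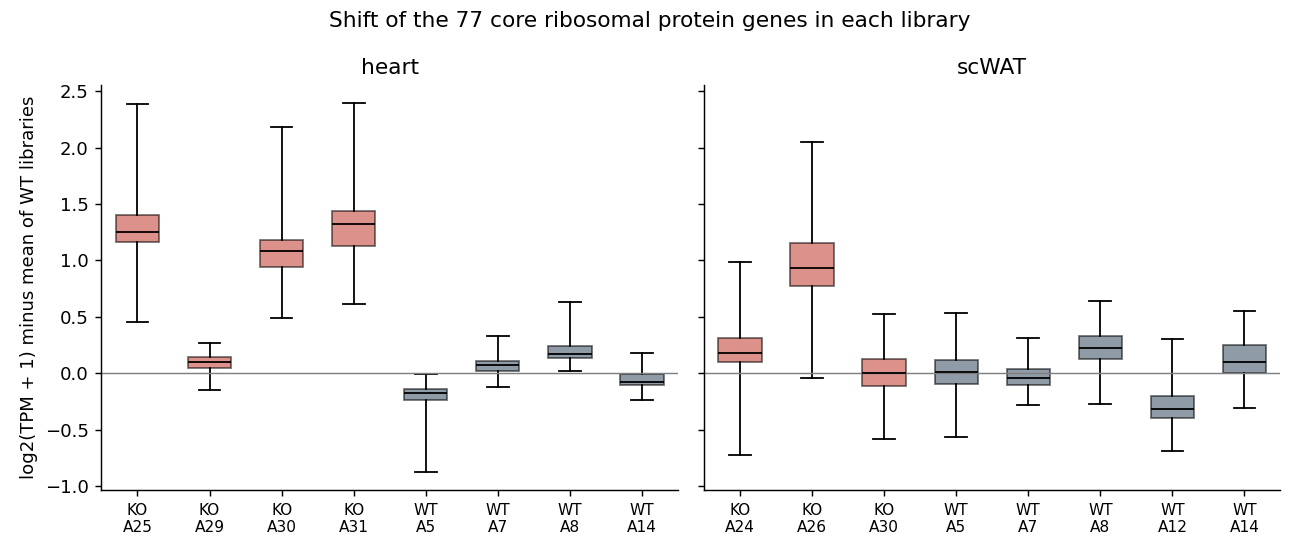
log2(TPM + 1) of the 77 members other than paralogs minus their mean over the wild-type libraries of the tissue, by library, with boxes from the first to the third quartile, a line at the median and whiskers to the extremes. In the hearts KO A25, A30 and A31 lie about 1 unit above the wild-type libraries and A29 lies with them, and in scWAT the KO library A26 stands above the rest. The shift of all genes in each library was not taken off.

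Macrophage and fibroblast markers moved with the members in the same 3 hearts. All 6 macrophage markers and all 6 fibroblast markers were higher in each of A25, A30 and A31 than in every wild-type heart. With A29 kept, 0 markers of either list had all KO hearts above all wild-type hearts (3.71% of all genes). A29 was set aside with its values known, and the share of all genes without it is not given here. Macrophage markers summed to between 771 and 1023 TPM in those 3, to 94.7 TPM in A29, and to between 94.3 and 152 TPM in wild-type hearts. Fibroblast markers summed to between 2099 and 3409 TPM in A25, A30 and A31, to 231 TPM in A29, and to between 187 and 300.2 TPM in wild-type hearts. Cardiomyocyte markers summed to between 14420 and 21000 TPM in A25, A30 and A31, to 25360 TPM in A29, and to between 20570 and 28990 TPM in wild-type hearts. Without A29, 1 of these 8 genes had a higher mean in KO hearts, and 2, Tnni3 and Myl2, lay below every wild-type heart. None of the 8 was at 0 in all hearts. The part of these markers in the ribosomal protein values was not tested.

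The central pair was Rpl3 and Rpl3l. Rpl3, the universal large subunit protein, stood at 414, 75.8, 360.0 and 416 TPM in KO hearts A25, A29, A30 and A31, against 70.3, 77.02, 96.1 and 72.3 TPM in wild-type hearts. Rpl3l, its striated muscle paralog, stood at 43.1, 161, 42.2 and 32.9 TPM in the same KO hearts, against 118, 150.1, 156 and 127 TPM in wild-type hearts. In A25, A30 and A31 the pair was turned round, with Rpl3 above Rpl3l, whereas Rpl3l exceeded Rpl3 in A29 and in every wild-type heart.

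Rpl3l made up 9.42%, 67.9%, 10.5% and 7.34% of the sum of both transcripts in the KO hearts A25, A29, A30 and A31. In wild-type hearts it made up 62.6%, 66.1%, 61.8% and 63.7%. As a ratio within one library this share does not depend on the scaling of TPM. The part of the cardiomyocyte, macrophage and fibroblast markers in this share was not tested. The sum of the pair was 457, 236, 402 and 449 TPM in KO hearts and 188, 227, 252 and 199 TPM in wild-type hearts, so the loss of Rpl3l in 3 KO hearts was smaller in TPM than the gain of Rpl3.

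**Figure D3:**
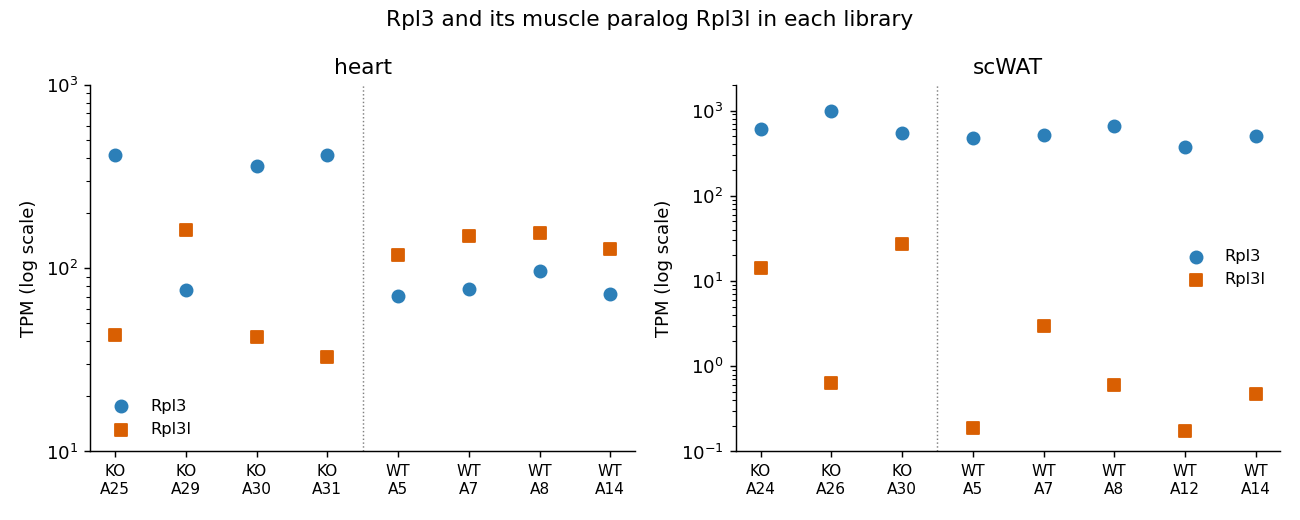
TPM of Rpl3 (circles) and Rpl3l (squares) in each library on log axes, with KO libraries left of the dotted line and wild-type libraries right of it. In the heart Rpl3l lies above Rpl3 in all wild-type libraries and in KO A29 and below it in KO A25, A30 and A31, and in scWAT Rpl3 exceeds Rpl3l in all 8 libraries.

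With all libraries Rpl3 had a log2 fold change of 1.73 (SE 0.47), or 1.48 relative to the median of all genes, and Rpl3l one of -1.28 (SE 0.41), or -1.53 relative to that median. Neither passed the threshold (limma adjusted p = 0.142 for each). Rpl3l was the single member with a negative value. Without A29 the log2 fold changes were 2.32 (SE 0.15) for Rpl3 and -1.78 (SE 0.16) for Rpl3l, with limma adjusted p-values of 8.3e-06 and 5.5e-05. Relative to the median of all genes they were 1.93 and -2.17.

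Among the members ranked by p in the heart, the first 5 were Rpl11, Rpsa, Rpl15, Rps20 and Rps7, each with a limma adjusted p of 0.142. Rpl11, which with Rpl5 and 5S RNA can hold back the p53 inhibitor Mdm2, stood at 345, 166, 314 and 361 TPM in KO hearts A25, A29, A30 and A31, against 123, 146, 149 and 144 TPM in wild-type hearts. Rps20, a small subunit protein of the head, stood at 249, 96.2, 215 and 258 TPM in the KO hearts, against 85.6, 87.1, 90.4 and 81.1 TPM in wild-type hearts. On the TPM scale both had every KO library above every wild-type library, with A29 closest to the wild-type range. With median-of-ratios scaling this held for Rpl11 and not for Rps20. Their log2 fold changes were 1.02 (SE 0.24) and 1.14 (SE 0.28), or 0.76 and 0.89 relative to the median of all genes.

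Rpsa, the laminin receptor precursor that is also a small subunit protein, stood at 769, 323, 630 and 704 TPM in KO hearts and at 265, 307, 312 and 237 TPM in wild-type hearts. Its groups did not overlap in TPM either, though they did with median-of-ratios scaling, and its log2 fold change was 1.05 (SE 0.26). For Rpl15 and Rps7 the log2 fold changes were 1.02 (SE 0.25) and 1.12 (SE 0.28). Relative to the median of all genes, Rpsa, Rpl15 and Rps7 stood at 0.79, 0.76 and 0.86.

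The stalk proteins, which recruit translation factors to the large subunit, had unequal fold changes. Rplp0, the base of the stalk, averaged 579 ± 165 TPM in KO hearts and 328 ± 25.5 TPM in wild-type hearts (SD, n = 4 each). Rplp1, which binds to it, averaged 1278 ± 497 TPM in KO hearts and 519 ± 77.6 TPM in wild-type hearts. Rplp2, the partner of Rplp1, averaged 421 ± 110 TPM in KO hearts and 256 ± 27.9 TPM in wild-type hearts. The log2 fold changes relative to the median of all genes were 0.51, 0.94 and 0.42, with limma adjusted p = 0.142 for each.

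The other paralogs of the heart were compared with the gene they resemble. Rpl22l1, the paralog of Rpl22 that is held down by Rpl22 protein in mouse, averaged 86.1 ± 33.1 TPM in KO hearts and 35.3 ± 4.41 TPM in wild-type hearts, and Rpl22 averaged 323 ± 125 and 135 ± 11.4 TPM. The log2 fold changes were 1.16 (SE 0.31) and 1.15 (SE 0.30). Rps27l, a p53 target in human cells, and Rps27 had log2 fold changes of 1.10 (SE 0.29) and 0.95 (SE 0.27). Within each of these pairs the values differed by less than their standard errors, unlike Rpl3 and Rpl3l.

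Rpl7l1, whose yeast relative acts in ribosome assembly, stood at 20.6, 13.4, 20.5 and 21.0 TPM in KO hearts A25, A29, A30 and A31, against 10.7, 14.4, 13.6 and 10.5 TPM in wild-type hearts. It had a log2 fold change of 0.57 (SE 0.22), against 0.94 (SE 0.26) for Rpl7. Rps4l and Rps4x had log2 fold changes of 0.75 (SE 0.23) and 0.87 (SE 0.26). Rpl39l, a paralog of Rpl39 best known from the testis, reached at most 0.583 TPM in any heart and was not tested, while Rpl39 had a log2 fold change of 1.43 (SE 0.37). None of these passed the threshold with all libraries (limma adjusted p from 0.142 to 0.159).

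**Figure D4:**
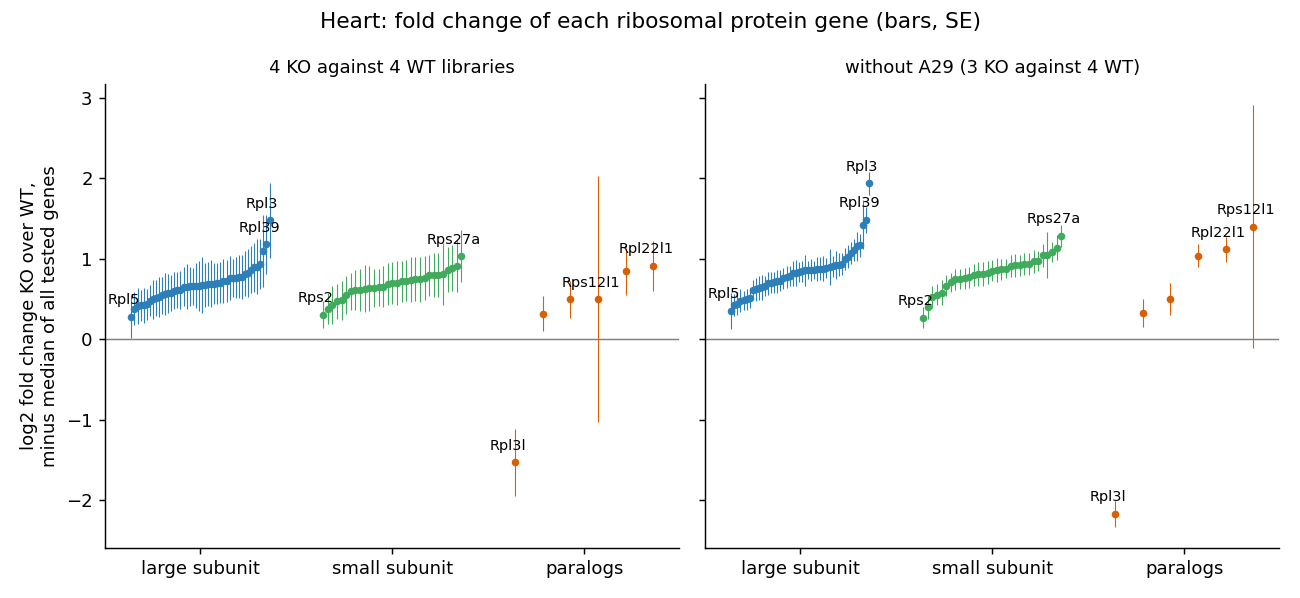
log2 fold change KO over wild-type in the heart minus the median of all tested genes, 1 point per tested member sorted within its class, with bars of 1 SE, for all 8 libraries (left) and without A29 (right). All large and small subunit members lie above 0 in both panels, with Rpl3 the highest and Rpl5 and Rps2 the lowest of their subunits, and Rpl3l lies below 0.

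The subunits had like medians. Relative to the median of all genes, the median log2 fold change was 0.67 over 46 large subunit members and 0.69 over 31 small subunit members, and 0.84 and 0.85 without A29. The large subunit made up 53.9%, 52.8%, 54.1% and 53.7% of the summed ribosomal protein TPM in KO hearts, against 53.4%, 52.4%, 53.1% and 52.7% in wild-type hearts. The order of members by mean TPM in KO hearts followed that in wild-type hearts, with a Spearman rho of 0.958 over 84 genes, given as a description because genes are not independent replicates.

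The members did not all move by the same amount within the ribosomal protein pool. This was examined by dividing TPM by the summed ribosomal protein TPM of each library, a scale added after the data had been seen, on which the median of all genes was -0.51 with all hearts and -0.60 without A29. With all 8 hearts 0 members were higher (0.867% of all genes) and 1 was lower (26.7% of all genes), Rpl3l, with a log2 fold change of -2.17 with an SE of 0.62 (limma, adjusted p = 0.0463). Without A29, 13 members were higher (6.16% of all genes) and 12 were lower (52.3% of all genes) relative to the pool.

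Among those higher relative to the pool were Rpl3 with 1.15 (SE 0.09), Rpl12 with 0.79 (SE 0.29), Rpl39 with 0.70 (SE 0.10), Rps27a, which is made as a fusion with ubiquitin, with 0.49 (SE 0.09), and Rplp1 with 0.37 (SE 0.08). Among those lower were Rpl3l with -2.94 (SE 0.14), Rps2 with -0.53 (SE 0.09), Rps13 with -0.39 (SE 0.11) and Rpl8 with -0.37 (SE 0.09), all by limma with adjusted p under the threshold of 0.05. Rps2, a small subunit protein at the messenger RNA entry channel, stood at 988, 654, 764 and 831 TPM in KO hearts A25, A29, A30 and A31, against 494, 577, 593 and 514 TPM in wild-type hearts. Its groups did not overlap in TPM, though they did with median-of-ratios scaling, and its log2 fold change was the smallest among small subunit members. The direction of these small shifts is relative to the pool, and on the TPM scale all of the 25 except Rpl3l had positive log2 fold changes.

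In scWAT, the summed ribosomal protein transcripts took 6.63%, 11.8% and 5.84% of all TPM in the KO libraries A24, A26 and A30, against 5.84%, 5.68%, 6.96%, 4.75% and 6.31% in wild-type A5, A7, A8, A12 and A14. A26 stood far above all others, and A24 and A30 lay within the wild-type range. The means were 8.09% ± 3.23 (SD, n = 3) in KO scWAT and 5.91% ± 0.816 (n = 5) in wild-type scWAT, a ratio of 1.37. Without A26 the ratio was 1.06.

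limma called 0 of 84 members higher (0.0146% of all 13682 tested genes) and 0 lower (0.00731% of all genes). At an unadjusted p under 0.05, 10 were higher (8.11% of all genes) and 0 lower (7.52% of all genes). The member median log2 fold change was 0.38, against 0.03 for all tested genes, with 79 members above 0 and 5 below (Rps4l, Rpl39l, Rps27l, Rpl41 and Rpl28). The same 5 were those below the median of all genes. The groups did not overlap in 2 members, Rps20 and Rps21, both higher (5.23% of all genes), and in 0 members lower (5.06% of all genes). With median-of-ratios scaling the groups of Rps20 and Rps21 overlapped. Without A26 the member median was 0.10.

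The 5 members with the smallest p in scWAT were Rpl3l, Rps12, Rps6, Rpl5 and Rps3a1, with limma adjusted p from 0.247 to 0.294. Rps6, the small subunit protein that S6 kinases phosphorylate, stood at 799, 1228 and 655 TPM in KO scWAT A24, A26 and A30, against 531, 520.4, 697, 475 and 674 TPM in the wild-type samples. A24 and A26 lay above all wild-type samples and A30 lay among them. Its log2 fold change was 0.59 (SE 0.23), and 0.34 (SE 0.20) without A26.

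A26 also differed in composition. Rps27, a small subunit protein, stood at 2126, 7081 and 2450 TPM in KO scWAT A24, A26 and A30, against 1153, 1780, 2661, 1566 and 1683 TPM in the wild-type samples. It made up 6.01% of the summed ribosomal protein TPM of A26, against 3.21% and 4.20% in A24 and A30 and between 1.98% and 3.83% in wild-type scWAT. The small subunit made up 48.5% of the pool in A26, against 44.8% and 45.5% in A24 and A30 and between 41.4% and 44.8% in wild-type scWAT.

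Lymphocyte and fibroblast markers stood apart in the same library. The 6 B cell markers summed to 512 TPM in A26, to 6.01 and 6.58 TPM in A24 and A30, and to between 2.49 and 22.5 TPM in wild-type scWAT. The 6 T cell markers summed to 396 TPM in A26, to 10.4 and 12.3 TPM in A24 and A30, and to between 5.25 and 13.8 TPM in wild-type scWAT. None of these 12 markers was at 0 in all libraries. The 6 fibroblast markers summed to 809 TPM in A26 and to between 2439 and 3418 TPM in A24 and A30. In wild-type scWAT they summed to between 1971 and 3513 TPM. The part of lymphocyte and fibroblast markers in the ribosomal protein values of A26 was not tested.

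Rpl3l in scWAT followed other samples. It stood at 14.2, 0.641 and 27.4 TPM in KO scWAT A24, A26 and A30, against 0.190, 2.95, 0.599, 0.172 and 0.469 TPM in wild-type scWAT A5, A7, A8, A12 and A14. A24 and A30 were high, A7 was the highest wild-type sample, and A26 lay in the wild-type range. The log2 fold change was 2.42 with an SE of 0.84 (limma, adjusted p = 0.247), and 3.64 with an SE of 0.49 (limma, adjusted p = 0.0105) without A26. That was the single member called without A26 (1 higher, against 0.923% of all genes, and 0 lower, against 0.0447%).

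The 9 skeletal muscle markers summed to 3507, 267 and 7301 TPM in KO scWAT A24, A26 and A30, and to 21.0, 783, 48.9, 8.33 and 9.08 TPM in wild-type scWAT. None of the 9 was at 0 in all libraries, and all 9 were higher in A24 and A30 than in every wild-type sample. With A26 kept, 0 of the 9 had all KO samples above all wild-type samples (5.23% of all genes). A26 was set aside with its values known, and the share of all genes without it is not given here. Eef1a2, the elongation factor isoform of muscle and neurons, stood at 24.1, 1.05 and 46.9 TPM in KO scWAT, against 0.133, 3.93, 0.395, 0.0153 and 0.128 TPM in wild-type scWAT. The part of these markers in the value of Rpl3l was not tested. Rpl3l as a share of Rpl3 and Rpl3l together was 2.28%, 0.0641% and 4.82% in KO scWAT and at most 0.567% in wild-type scWAT.

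Rpl3 itself stood at 611, 1001 and 542 TPM in KO scWAT, against 482, 518, 662, 376 and 509 TPM in wild-type scWAT, with a log2 fold change of 0.46 with an SE of 0.24 (limma, adjusted p = 0.373). Rps4l averaged 48.0 ± 11.8 TPM in KO scWAT and 73.5 ± 27.2 TPM in wild-type scWAT, with a log2 fold change of -0.57 (SE 0.29), while Rps4x had one of 0.52 (SE 0.24). Rps27l had a log2 fold change of -0.15 (SE 0.15), against 0.97 (SE 0.41) for Rps27, and Rpl39l one of -0.58 (SE 0.46), against 0.27 (SE 0.27) for Rpl39. Rpl22l1 and Rpl22 had 0.35 (SE 0.28) and 0.52 (SE 0.24). None of these passed the threshold (limma adjusted p from 0.306 to 0.629).

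The stalk genes of scWAT had log2 fold changes of 0.08 (SE 0.21) for Rplp0, 0.35 (SE 0.25) for Rplp1 and 0.44 (SE 0.25) for Rplp2, and Rpsa one of 0.34 (SE 0.29), with limma adjusted p from 0.405 to 0.861. Rpl41, the smallest ribosomal protein, stood at 2269, 2220 and 1527 TPM in KO scWAT, against 2745, 2057, 2248, 1742 and 2837 TPM in wild-type scWAT. It did not share the high level of A26, where 79 of 84 members were above the wild-type mean.

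An interaction term over all 16 libraries tested whether KO and wild-type differed by another amount in heart than in scWAT. limma called 0 of 83 members with a larger difference in heart (0.00867% of all 11536 tested genes) and 0 with a smaller one (0.0520% of all genes). At an unadjusted p under 0.05, 11 had a larger difference (17% of all genes) and 1 a smaller one (3.42% of all genes). With array weights on the same 16 libraries, limma called 79 larger (30% of all genes) and 1 smaller (15.6% of all genes). These weights too came from the same values, so that count is no separate test. Rpl3l had the difference of differences farthest from 0 among the members, with -3.70 on the log2 scale (SE 0.97, limma adjusted p = 0.0898), and Rps4l had 1.31 with an SE of 0.37 (limma, adjusted p = 0.0898). Relative to the median of all genes these terms were -3.93 for Rpl3l and 1.08 for Rps4l. Without scWAT A26, 0 members had a larger difference in heart (0.0435% of all genes) and 1 had a smaller one (0.774% of all genes), which was Rpl3l with -4.92 (limma, adjusted p = 6.4e-04). Without heart A29, 36 members had a larger difference in heart (22.4% of all genes) and 1, Rpl3l with -4.20 with an SE of 0.93 (limma, adjusted p = 0.00477), a smaller one (2.27% of all genes). Skeletal muscle markers, high in scWAT A24 and A30, also had negative terms over all 16 libraries. They were -6.16 for Ckm, -5.05 for Tnnt3, -4.92 for Tnni2 and -4.2 for Mylpf, none past the threshold. The part of muscle in the term of Rpl3l was not tested.

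Wild-type heart and wild-type scWAT differed in the level of nearly all members. The summed share was 1.70% ± 0.188 of TPM in wild-type hearts (SD, n = 4) and 5.91% ± 0.816 in wild-type scWAT (n = 5), a ratio of 0.288, and 0.580 when the mitochondrially encoded transcripts were left out. limma called 82 of 84 members lower in heart (78.5% of all 13093 tested genes) and 1 higher (8.12% of all genes), with Rps12l1 not called. The median log2 fold change, heart over scWAT, was -1.79 for the members and -1.27 for all tested genes. Both the count and the median leaned on the scale of TPM: with median-of-ratios scaling 37 members were lower (34.2% of all genes) and 2 higher (33.1% of all genes), and the member median was -0.34, against -0.03 for all tested genes.

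Rpl3l was the member that was higher in heart. It averaged 138 ± 18.2 TPM in wild-type hearts and 0.876 ± 1.17 TPM in wild-type scWAT, a log2 fold change of 6.37 (SE 0.31), or 7.63 relative to the median of all genes (limma adjusted p = 2.0e-09). Rpl3 averaged 78.9 ± 11.8 TPM in wild-type hearts and 509 ± 102 TPM in wild-type scWAT, a log2 fold change of -2.66 (SE 0.17), or -1.40 relative to the median of all genes (limma adjusted p = 2.8e-08). The pair was thus arranged in opposite ways, with Rpl3l above Rpl3 in each wild-type heart and below it in each wild-type scWAT sample.

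The members with the largest falls beside Rpl3 were Rpl39l, Rpl27a and Rpl11. Rpl39l averaged 0.144 ± 0.0704 TPM in wild-type hearts and 11.5 ± 7.18 TPM in wild-type scWAT, a log2 fold change of -3.28 (SE 0.32). Rpl27a had a log2 fold change of -2.65 (SE 0.16) and Rpl11 one of -2.61 (SE 0.13), all called by limma. Relative to the median of all genes, Rpl39l, Rpl27a and Rpl11 stood at -2.02, -1.38 and -1.345. At the other end, Rps2 had a log2 fold change of -0.69 with an SE of 0.14 (limma, adjusted p = 6.6e-04), which is 0.58 above the median of all genes, and Rplp0 one of -1.30 with an SE of 0.14 (limma, adjusted p = 1.7e-06), which is 0.03 below that median and turned to 0.16 with median-of-ratios scaling.

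**Figure D5:**
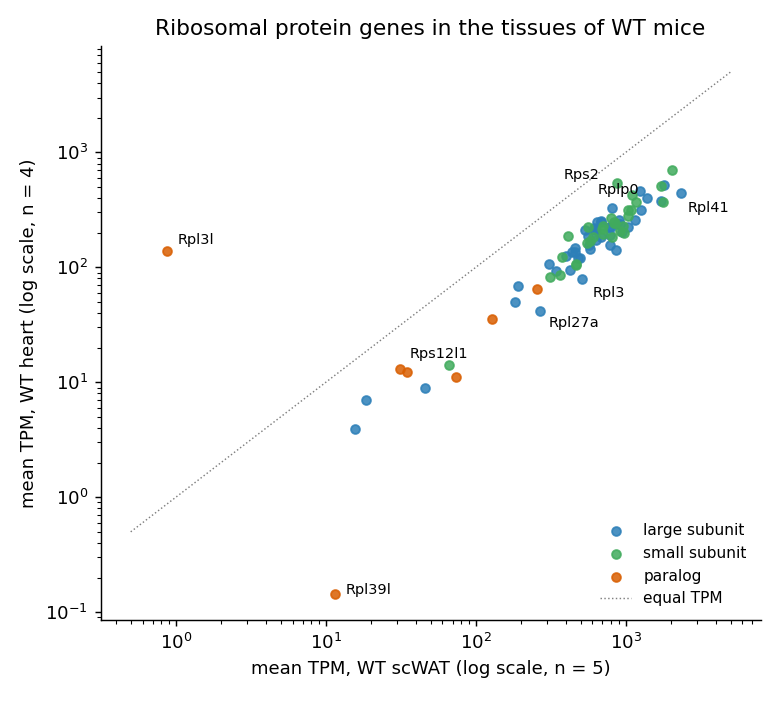
Mean TPM of each of the 84 members in wild-type heart (vertical, n = 4) against wild-type scWAT (horizontal, n = 5) on log axes, coloured by subunit, with the dotted line at equal TPM. Nearly all members lie below the line in one band, Rps2 lies close to it, Rpl3l lies above it and Rpl39l lies farthest below.

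Within the ribosomal protein pool the tissues were arranged alike, with a Spearman rho of 0.911 between the member means over 84 genes. On the scale of the summed ribosomal protein TPM, where the median of all genes was 0.27, 13 members were higher in wild-type heart (41.5% of all genes) and 17 were lower (21.8% of all genes). After Rpl3l, those higher included Rps2 with a log2 fold change of 1.11 (SE 0.12), Rps13 with 0.66 (SE 0.12) and Rplp0 with 0.49 (SE 0.12). Those lower included Rpl3 with -0.88 (SE 0.12), Rpl27a with -0.88 (SE 0.12), Rpl11 with -0.82 (SE 0.12) and Rpl41 with -0.60 (SE 0.14), each past the limma threshold.

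Levels per length were ranked within each group. The first 3 by mean TPM were Rplp1, Rps29 and Rps24 in KO hearts and Rps29, Rps2 and Rplp1 in wild-type hearts. They were Rps27, Rps29 and Rps24 in KO scWAT and Rpl41, Rps29 and Rplp1 in wild-type scWAT. The median member stood at 382 TPM in KO hearts, 194 TPM in wild-type hearts, 901 TPM in KO scWAT and 640.4 TPM in wild-type scWAT. Among the lowest were Rpl5, at 10.9 ± 3.59 TPM in KO hearts and 7.03 ± 1.58 TPM in wild-type hearts, and Rpl12, at 12.4 ± 5.96 and 3.93 ± 1.65 TPM. Whether values this far below the median member are the levels of these messages was not tested.

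The rest of the translation machinery was set beside the members. With all hearts limma called 0 genes in each of these lists. The median log2 fold changes, against 0.26 for all genes, were 0.77 for 9 elongation factors, 0.40 for 33 initiation factors, 0.48 for 43 genes of ribosome biogenesis and RNA polymerase I, 0.16 for 15 regulators of TOP messages and mTORC1, and 0.80 for 4 other ribosome-bound or fusion proteins. At an unadjusted p under 0.05, 6, 12, 13, 1 and 3 genes of these lists were higher, against 20.9% of all genes, and 1 elongation factor, Eef1a2, was lower. Without A29, limma called higher 7 of 9, 21 of 33, 27 of 43, 3 of 15 and 4 of 4 genes of these lists, against 34.8% of all genes, and 0 lower in each, against 4.16%. The 3 of 15 regulators lay below the share of all genes.

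Eef1a1, the elongation factor that brings aminoacyl-tRNA to the ribosome in most cells, stood at 1956, 320.4, 1620 and 1923 TPM in KO hearts A25, A29, A30 and A31, against 296, 332, 388 and 338 TPM in wild-type hearts. Its muscle isoform Eef1a2 stood at 265, 340.4, 372 and 180 TPM in KO hearts, against 319, 425, 422 and 455 TPM in wild-type hearts. As for Rpl3 and Rpl3l, the widely expressed isoform exceeded the muscle isoform in A25, A30 and A31, while A29 lay with the wild-type hearts, in which the muscle isoform was the higher. Without A29 the log2 fold changes were 2.44 with an SE of 0.13 (limma, adjusted p = 4.0e-06) for Eef1a1 and -0.62 with an SE of 0.23 (limma, adjusted p = 0.0560) for Eef1a2. Relative to the median of all genes they were 2.05 and -1.01. Eef1a1 and Eef1a2 were singled out after their values were seen, and the part of cell type markers in these values was not tested.

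The genes with the smallest p in these lists included the following. Tpt1, a growth-related protein with a TOP message, had a log2 fold change of 0.93 (SE 0.22), Rack1, the scaffold on the small subunit, 1.02 (SE 0.26), and Nop58 and Npm1, nucleolar proteins of ribosome assembly, 1.21 (SE 0.32) and 1.01 (SE 0.33), each with limma adjusted p = 0.142 in all hearts. In scWAT 0 genes of the lists passed by limma, with 2 elongation factors, 1 initiation factor, 2 biogenesis genes and 1 regulator higher and 1 initiation factor lower at an unadjusted p under 0.05, against 8.11% of all genes higher and 7.52% lower. Their medians were 0.11 for elongation factors, 0.03 for initiation factors, 0.15 for ribosome biogenesis, 0.01 for the regulators and 0.22 for the other ribosome-bound proteins, against 0.03 for all genes. Between wild-type tissues, limma called lower in heart 9 of 10 elongation factors, 28 of 33 initiation factors, 38 of 43 biogenesis genes, all 15 regulators and all 4 ribosome-bound proteins, against 78.5% of all genes. It called higher 1 elongation factor, Eef1a2, with a log2 fold change of 8.02 with an SE of 0.39 (limma, adjusted p = 1.9e-09), and 1 initiation factor.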

How the data were processed

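RNA of 8 scWAT and 8 left ventricle samples was sequenced after TruSeq library preparation from total RNA, per the labels' protocols. The authors deposited 1 table of TPM per library and gene symbol, per the file headers. Not given in the sources used here are aligner, quantifier, annotation, build and strand setting. The deposited names place the 8 heart libraries on 1 sequencing run and give none for scWAT, so tissue and run cannot be told apart.

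Each fit kept genes averaging at least 1 TPM in its libraries and tested them on log2(TPM + 1), a pseudocount that understates changes of low genes, with limma 3.58.1 (lmFit, eBayes with trend) in R 4.3.3. Tests were 2-sided and adjusted over all tested genes with a threshold of 0.05. Each tissue was fitted alone, wild-type tissues were compared without a block, and the genotype difference between tissues was an interaction term. Where the median of all genes lay more than 0.1 from 0, some fold changes are also given relative to it. The others still hold that common shift. The fits were tested on simulated data with noise drawn separately for each gene and library and with its spread capped. Such data hold no whole library that departs from its group, so they do not cover the case of A29 or A26.

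Named singly were Rpl3, Rpl3l, the other paralogs with their parents, the stalk genes, Rpsa, up to 5 members per direction by smallest p in each KO comparison, up to 4 by size between tissues, and up to 3 genes of each further list; others were chosen after their values were seen. The members, lists and rules were chosen with earlier results of these data known. Same-numbered libraries of the tissues come from the same mouse. Their deviations from the group means correlated with r of 0.04, 0.06, 0.17, 0.12 and -0.002 in A5, A7, A8, A14 and A30. Alternatives were pseudocounts of 0.25 and 5, filters, scalings, robust fits, array weights, added pseudogene rows, a fold of 1.5, left-out libraries and the mouse as a block.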

Additional observations from a re-analysis of the deposited data

Results flagged for a closer look

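Among 87 groups of values checked for a library far from the others of its group by Dixon's test, 5 were marked, where chance marks about 1 in 20. KO scWAT, with 3 libraries, was too small for this check and was left out, so A26 could not be marked. In the KO hearts A29 lay far from the other 3 libraries in 3 genes: low for Rpl3 at 75.8 TPM, high for Rpl3l at 161 TPM and low for Rpl7l1 at 13.4 TPM. In wild-type scWAT, A7 was high for Rpl3l at 2.95 TPM and A12 was low for Rpl27a at 203 TPM. No member passed the test of a different genotype effect in heart and scWAT with all libraries (limma, 0 of 83).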

How the results depend on the processing

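With all libraries, no choice of pseudocount, filter, scaling of TPM, pseudogene sum, robust fit or fold brought a member past the threshold in heart or scWAT, except array weights in heart, which called 81 higher and 1 lower, and the summed ribosomal protein scale, which called 1 lower in heart. Leaving out single libraries gave 0 to 81 higher and 0 to 1 lower in heart, where only the fit without A29 made calls, and 0 to 1 higher in scWAT, where only the fit without A26 did. Without A29, median-of-ratios scaling gave 58 higher and 1 lower, and the summed ribosomal protein scale 13 higher and 12 lower. Without A26, that scale called Rpl3l alone higher in scWAT. For the difference between tissues, array weights called 79 larger and 1 smaller in heart, with a median of 1.07, and left-out libraries gave 0 to 36 larger and 0 to 1 smaller. Between wild-type tissues, median-of-ratios scaling called 37 lower (34.2% of all genes) and 2 higher (33.1% of all genes), with a median of -0.34. The summed ribosomal protein scale called 17 lower (21.8% of all genes) and 13 higher (41.5% of all genes). The member median was -0.62 with quantile normalization and -0.78 with mitochondrially encoded genes removed, where the ratio of sums was 0.580. Medians of all genes under these last settings are not given here. Rplp0 turned to 0.16 with median-of-ratios scaling. The cause was not tested.

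With the mouse as a replicate block, 82 members were lower and 1 higher in wild-type heart (median -1.86), and the difference between tissues had 0 calls (median 0.53), so the paired fits changed no call. TPM gives no depth, so counting error could not be set against any difference, and with 3 to 5 mice per group a member that was not called is not shown to be equal. A fit of scWAT with skeletal muscle and B cell marker means as covariates called 0 members and is not read, because these markers together nearly mark the 3 KO libraries.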
